A study of Mus musculus with 24 samples.

Results

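Transthyretin, encoded by Ttr, and 9 other genes of the choroid plexus were followed through RNA sequencing of brain and liver from male mice. The 10 genes are Ttr, Kl, Folr1, Clic6, Kcnj13, Aqp1, Otx2, Cldn2, Enpp2 and Sostdc1. They were chosen by gene symbol from the 55797 gene names of the deposited count files, with earlier results of these brain libraries known, so their brain values are a description: no p-value is given for them, and counts of how many passed a threshold are not evidence. All 10 were among the 23653 genes that passed the filter on low counts in brain.

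The series held 12 brain and 12 liver libraries. For either tissue, 6 were made from db/db mice, in which both copies of the leptin receptor gene carry the db mutation, and 6 from db/+ mice, which carry 1 mutated and 1 working copy. Each genotype gave 2 libraries per drink, and the 3 drinks were water, sucrose and brazzein, a sweet-tasting protein that the series title gives as 3M-Brazzein. The strain entry is C57/BL6 and the treatment entry is 16 weeks for every sample. No age, brain region or drink concentration was used here, and the labels do not say whether the replicates of a group are separate animals, so each p-value measures only the spread between these samples. Genotype was taken from the sample titles, because the separate genotype entry gives db/+ for all brains and db/db for all livers and so contradicts the title of 12 of the 24 samples.

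The choroid plexus is a sheet of epithelium over a vascular core that hangs in the brain ventricles and secretes cerebrospinal fluid. Its epithelial cells are the main source of transthyretin in the brain, a carrier of thyroxine and of the retinol-binding protein, and the liver is the main source of the transthyretin in blood. The same cells carry water and ion channels on their surface, seal the gaps between them with claudins, take up folate for the cerebrospinal fluid and depend on the homeobox factor OTX2.

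The estimated counts of a brain library summed to between 58287665 and 77772849, and those of a liver library to between 60384569 and 79385804. Values below are CPM (a gene's count as a share of the TMM-scaled library total) unless FPKM (scaled also for gene length) is named. Log2 differences are db/db over db/+ from edgeR, with a standard error (SE). The SE was derived as the size of the log2 difference divided by the square root of edgeR's F statistic. Lepr, the gene altered in this model, had 2.0 to 2.77 CPM in the 6 db/db brains and 3.13 to 3.87 CPM in the 6 db/+ brains. These ranges do not overlap, but a count per gene pools all receptor forms and does not check the mutation. Of the db/+ brains, 3 stood apart. The db/+ water replicate 1 library was low in cerebellar markers, with a summed level of 562 CPM over 8 genes, against 1299 to 1362 CPM in the other 5 db/+ libraries. The db/+ sucrose replicate 1 and db/+ brazzein replicate 2 libraries held pituitary RNA, with pituitary markers summing to as much as 365 CPM. The genotype difference of each of the 10 genes is given with and without db/+ water replicate 1. Fits without it leave 1 db/+ water library, so their SE does not measure the spread of that group.

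Per length, Ttr was the most abundant of the 10 genes. Its deposited FPKM averaged 616 ± 101 over the 12 brains (SD), rank 36 among all genes by mean FPKM. Enpp2 followed at 103 ± 10.9 FPKM. The other 8 lay close together, at mean FPKM of 4.83 for Folr1, 4.59 for Clic6, 3.83 for Kl, 3.25 for Otx2, 3.21 for Kcnj13, 2.32 for Sostdc1, 1.83 for Aqp1 and 0.961 for Cldn2. The SDs of these 8 ran from 0.134 to 0.695 FPKM, so Folr1 and Clic6, and Otx2 and Kcnj13, differ by less than their spread over libraries. The lowest estimated count behind any of these values was 223, for Cldn2, and Ttr had 53142 to 96322. All 10 genes were thus detected in every brain library.

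Ttr was higher in every db/db brain than in every db/+ brain. In db/db, water gave 1077 and 1197 CPM, sucrose 1158 and 1237 CPM, and brazzein 1250.4 and 1215 CPM. In db/+, water gave 713 and 978 CPM, sucrose 1009.6 and 941 CPM, and brazzein 961 and 966 CPM. The lowest db/db library thus stood above the highest db/+ library, and db/+ water replicate 1 stood well below the other 5 db/+ libraries. The means were 1189 ± 63.9 CPM in db/db and 928 ± 108 CPM in db/+ (SD, n = 6 each), a log2 difference of 0.36 (SE 0.07), or 1.28-fold. In deposited FPKM, which scale the libraries in another way, Ttr averaged 698 ± 49.99 in db/db and 534 ± 60.9 in db/+. Without db/+ water replicate 1 the log2 difference was 0.29 (SE 0.04), and without the 3 db/+ libraries that stood apart it was 0.31. Without these 3, the other 9 genes ran from -0.16 (Kcnj13) to 0.21 (Clic6). The first fit leaves 1 db/+ water library, so its SE does not measure the spread of that group. The second fit leaves 1 library in each db/+ group and holds no measure of the spread within db/+ groups.

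Clic6 was the only other of the 10 genes whose groups did not overlap. CLIC6 belongs to a family of chloride intracellular channel proteins. In db/db brains it had 25.2 and 28.7 CPM with water, 25.5 and 28.4 CPM with sucrose, and 26.9 and 25.5 CPM with brazzein. In db/+ brains it had 16.2 and 22.2 CPM with water, 23.7 and 22.2 CPM with sucrose, and 24.6 and 21.5 CPM with brazzein. The gap between the groups was small, from 25.2 CPM in the lowest db/db library to 24.6 CPM in the highest db/+ library. The means were 26.7 ± 1.55 CPM in db/db and 21.8 ± 2.93 CPM in db/+, with a log2 difference of 0.30 (SE 0.09) that was 0.23 (SE 0.07) without db/+ water replicate 1. Across all genes tested, 206 (0.871%) had every db/db brain above every db/+ brain, and Ttr and Clic6 were 2 of them. This count is not read as support, since results of this comparison were known when the genes were chosen.

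**Figure D1:**
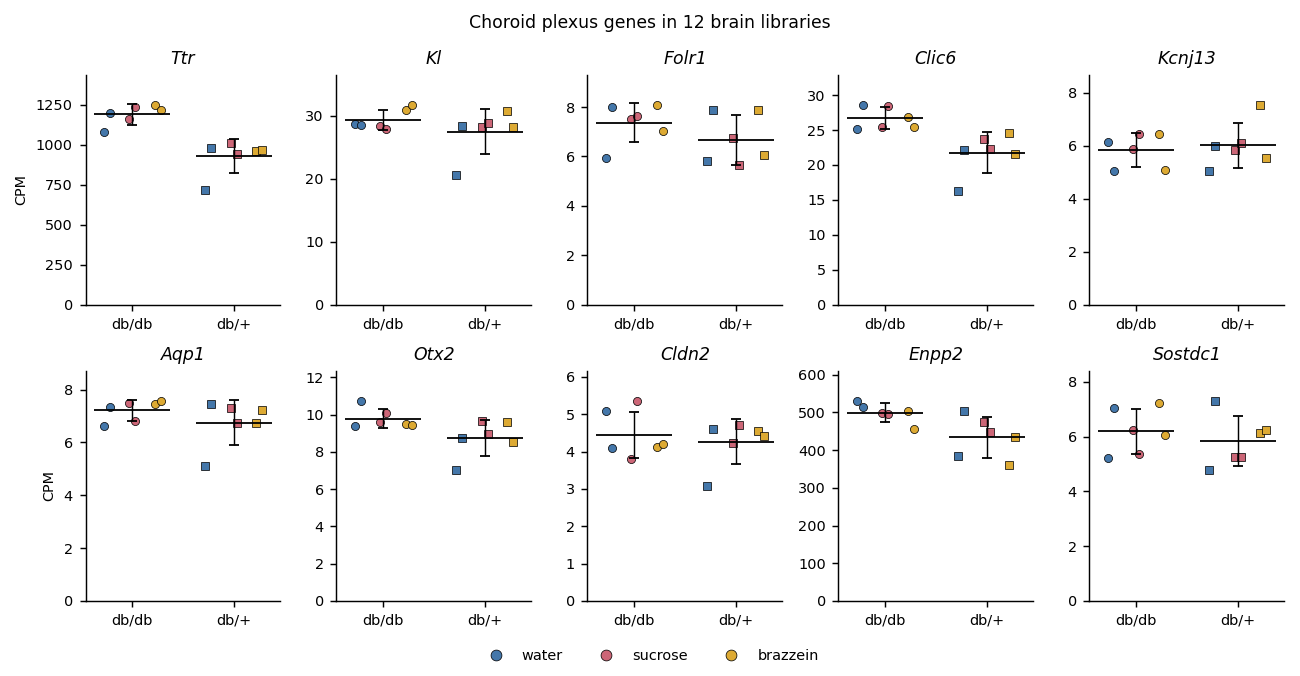
Level of each of the 10 genes in the 12 brain libraries, in CPM on axes that start at 0, with db/db left of db/+ and drinks by colour; each point is a library, the line is the mean and the bar the SD over 6 libraries. The groups do not overlap for Ttr and Clic6, overlap for the other 8 genes, and db/+ water replicate 1, the leftmost blue square, is the lowest of the 12 libraries for 7 of the 10.

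The other secreted products overlapped between genotypes. Enpp2 encodes autotaxin, the secreted enzyme that makes lysophosphatidic acid, and is also made by oligodendrocytes. The db/db brains had 530.3 and 515 CPM of it with water, 497 and 497 CPM with sucrose, and 504 and 455 CPM with brazzein. The db/+ brains had 384 and 503 CPM with water, 474 and 448 CPM with sucrose, and 359.5 and 436 CPM with brazzein. The db/+ water replicate 2 library reached the level of the db/db libraries, and 3 of the 6 db/db libraries lay above the highest db/+ library. The log2 difference was 0.20 (SE 0.07), and 0.14 (SE 0.06) without db/+ water replicate 1. Kl encodes klotho, a co-receptor for FGF23 that is also shed as a soluble protein. Kl had 27.9, 28.6 and 31.8 CPM (lowest, median and highest) in db/db and 20.6, 28.3 and 30.8 CPM in db/+. The Kl medians were close, and its log2 difference of 0.10 (SE 0.08) was 0.02 (SE 0.05) without db/+ water replicate 1. Sostdc1 encodes a secreted antagonist of BMP and Wnt signals. Sostdc1 had 5.23, 6.15 and 7.22 CPM in db/db and 4.79, 5.70 and 7.30 CPM in db/+, with a log2 difference of 0.09 (SE 0.13) that was -0.00 (SE 0.11) without db/+ water replicate 1.

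Among the channels and the receptor, no gene other than Clic6 separated the genotypes. Aqp1 encodes the water channel of the apical membrane, and had 6.63, 7.40 and 7.57 CPM in db/db and 5.10, 6.98 and 7.45 CPM in db/+. Its log2 difference was 0.10 (SE 0.10), and 0.01 (SE 0.08) without db/+ water replicate 1. Kcnj13 encodes the inwardly rectifying potassium channel Kir7.1, and had 5.04, 6.0 and 6.46 CPM in db/db and 5.05, 5.93 and 7.56 CPM in db/+. It was the single gene of the 10 with a negative log2 difference, -0.04 (SE 0.12). This was -0.08 (SE 0.13) without db/+ water replicate 1, and 0.04 without db/+ brazzein replicate 1, its highest library. Folr1 encodes the folate receptor alpha, which moves folate into the cerebrospinal fluid. Folr1 had 5.95, 7.58 and 8.10 CPM in db/db and 5.65, 6.39 and 7.89 CPM in db/+, a log2 difference of 0.15 (SE 0.13) that was 0.08 (SE 0.13) without db/+ water replicate 1.

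The junction and transcription factor genes also overlapped. Cldn2 encodes claudin-2, which forms pores for cations and water in tight junctions. Cldn2 had 3.80, 4.17 and 5.36 CPM in db/db and 3.09, 4.49 and 4.72 CPM in db/+, and its log2 difference of 0.06 (SE 0.14) was -0.03 (SE 0.12) without db/+ water replicate 1. Otx2 had 9.37, 9.55 and 10.7 CPM in db/db and 7.03, 8.84 and 9.63 CPM in db/+. The highest 2 of the db/+ libraries lay within the db/db range, and the log2 difference was 0.16 (SE 0.08), or 0.11 (SE 0.08) without db/+ water replicate 1. In the RefSeq annotation of build GRCm38.p6, Kcnj13 lies opposite to Gigyf2 (mean 57.2 CPM in brain), Folr1 opposite to Anapc15 (15.6 CPM), Enpp2 opposite to Gm26684 (1.62 CPM) and Otx2 opposite to Otx2os1 (0.567 CPM). The library kit does not mark strand, so reads of these pairs cannot be told apart where the genes overlap.

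**Figure D2:**
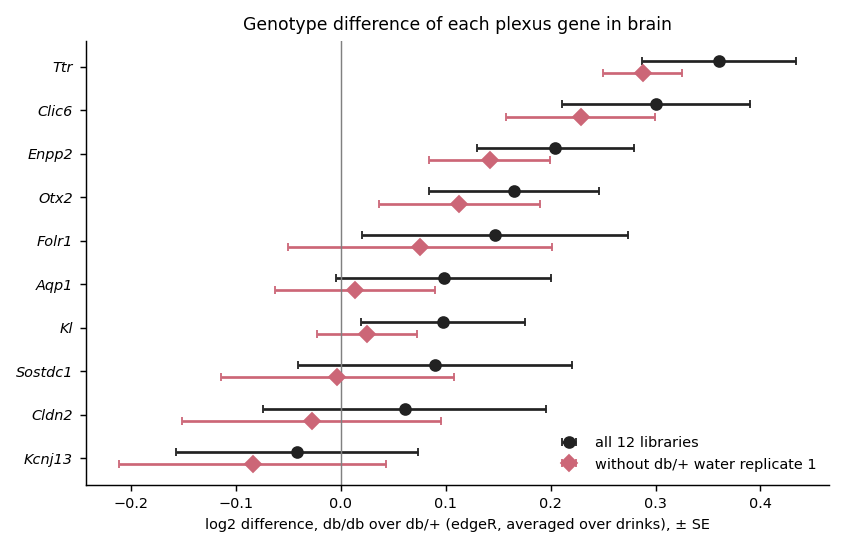
Log2 difference of each gene in brain, db/db over db/+, averaged over drinks, with its SE derived from the edgeR test. Black circles use all 12 libraries and red diamonds leave out db/+ water replicate 1, so that 1 db/+ water library remains. Without that library every value was lower, Ttr still stood at 0.29 and the median of the other 9 genes was 0.02.

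Over the 10 genes, 9 had a positive log2 difference and the median was 0.12, and the median over all genes tested was 0.00. The 9 genes other than Ttr had a median of 0.10. Without db/+ water replicate 1 this median was 0.02 and 7 of the 10 genes remained above 0. By edgeR with Benjamini-Hochberg adjustment over all genes, 0 of the 10 passed an adjusted p of 0.05, where 0.00846% of all tested genes did. At an unadjusted p under 0.05, 3 of the 10 passed (Ttr, Clic6 and Enpp2), beside 13.8% of all genes. DESeq2 called 1 of the 10, Ttr, with an adjusted p under 0.05, beside 3.76% of the genes to which it gave an adjusted p. Nothing is read from these counts, since results of the same contrast were known when the genes were chosen. In bulk tissue, more plexus cells in a sample and more RNA of a gene per plexus cell cannot be told apart.

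The genotype difference of Ttr was positive on each drink, at 0.43 on water, 0.30 on sucrose and 0.36 on brazzein on the log2 scale (SE 0.13 each). The water value rests on which db/+ library is kept, and was 0.21 (SE 0.07) without db/+ water replicate 1 and 0.67 (SE 0.08) without replicate 2. Each of these fits leaves 1 db/+ water library, so its SE does not measure the spread of that group. Since every db/db brain stood above every db/+ brain, the 2 libraries of each genotype could not overlap on any of the drinks. On water, all 10 genes had a positive log2 difference with a median of 0.23, on sucrose 9 did with a median of 0.10, and on brazzein 8 did with a median of 0.11. The larger median on water is that of the group that holds db/+ water replicate 1. On water, 0 of the 10 passed the adjusted edgeR test (0.00846% of all genes did), 3 passed unadjusted (Ttr, Clic6 and Otx2, beside 6.79% of all genes) and DESeq2 called 0 (0.698% of all genes). On sucrose, edgeR called 0 of the 10 with 0% of all genes, 1 passed unadjusted (Ttr, beside 9.32%) and DESeq2 called 0 (1.36%). On brazzein, edgeR again called 0 of the 10 with 0% of all genes, 1 passed unadjusted (Ttr, beside 8.15%) and DESeq2 called 0 (0.744%). The comparison of the genotype difference between drinks called 0 of the 10 by edgeR (0% of all genes), 0 unadjusted (5.45%) and 0 by DESeq2 (0.677%).

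Between drinks, the values of Ttr overlapped within db/db and within db/+ except where brazzein stood above water in db/db. Ttr averaged 1137 ± 85.1 CPM in db/db on water, 1198 ± 56.3 CPM in db/db on sucrose and 1233 ± 24.9 CPM in db/db on brazzein (SD, n = 2 each). In db/+ it averaged 845 ± 187 CPM on water, 975 ± 48.5 CPM on sucrose and 963 ± 3.73 CPM on brazzein. The low mean of db/+ on water comes with replicate 1 of that group. Over both genotypes, the log2 difference of Ttr was 0.14 (SE 0.09) for sucrose over water, 0.15 (SE 0.09) for brazzein over water and 0.01 (SE 0.09) for brazzein over sucrose. Without db/+ water replicate 1 the differences from water were 0.03 (SE 0.05) for sucrose and 0.04 (SE 0.05) for brazzein, and without replicate 2 they were 0.26 and 0.27 (SE 0.05 each). Here too the SE of such a fit does not measure the spread of db/+ on water. The 10 genes had log2 differences from -0.14 to 0.14 for sucrose over water, from -0.14 to 0.20 for brazzein over water and from -0.13 to 0.22 for brazzein over sucrose. None of the 10 passed in any of the 3 drink comparisons by edgeR adjusted (0% of all genes), by edgeR unadjusted (5.61%, 4.61% and 4.02% of all genes in the order just given) or by DESeq2 (0.233%, 0.223% and 0.239%).

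Whether Ttr moved with the other plexus genes was described by rank correlation (Spearman's rho) and Pearson's r of log2(CPM + 1) over the 12 brains. The 12 points share genotype and drink groups, and a library low in all plexus RNA moves all of these genes, so these are descriptions and carry no p. Clic6 was the most alike of the 9, with rho 0.86 and r 0.95, a rho that 0.186% of the 23652 other tested genes reached. Enpp2 (rho 0.65, r 0.68), Aqp1 (0.64, 0.78), Folr1 (0.62, 0.61) and Otx2 (0.59, 0.85) followed. Sostdc1 (0.42, 0.49) and Kl (0.29, 0.75) were less alike, and Kcnj13 (0.14, 0.12) and Cldn2 (-0.02, 0.45) had a rho near 0. The median rho of the 9 genes was 0.59, beside 0.00 for all genes, and 5 of the 9 had a rho of at least 0.5, beside 9.85% of all genes.

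Part of this likeness rested on a single library. In db/+ water replicate 1, Ttr stood at 73.8% of the median of the other db/+ brains, and the other 9 genes at 67.7% (Cldn2) to 86.0% (Folr1) of theirs. This library was the lowest of the 12 for 7 of the 10 genes, and the second lowest for Folr1, Kcnj13 and Enpp2, while 11.6% of all tested genes were lowest there. Its cerebellar markers, given above, were low in the same library. Over the 12 libraries the median rho of the 8 cerebellar genes with Ttr was -0.14, but the list was split. Its values ran from -0.38 for Neurod1 to 0.59 for Pvalb, with Pcp2 at 0.52 and Gabra6 at -0.34. The part of these markers in the plexus values was not tested. Without this library the median rho was 0.46, with Clic6 at 0.82, Enpp2 at 0.56, Aqp1 at 0.53, Folr1 at 0.51, Otx2 at 0.46, Sostdc1 at 0.25, Kl at 0.08, Kcnj13 at -0.05 and Cldn2 at -0.33. Without the 2 libraries farthest from the median of Ttr (db/+ water replicate 1 and db/db brazzein replicate 1) the median rho was 0.35 and Clic6 stood at 0.81. Within the 6 db/db libraries the median rho was 0.26, from -0.49 for Enpp2 to 0.71 for Folr1. Within the 6 db/+ libraries it was 0.54, from -0.03 for Kl to 0.89 for Aqp1. Clic6 had 0.49 within db/db and 0.37 within db/+, below its value of 0.86 over both genotypes.

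**Figure D3:**
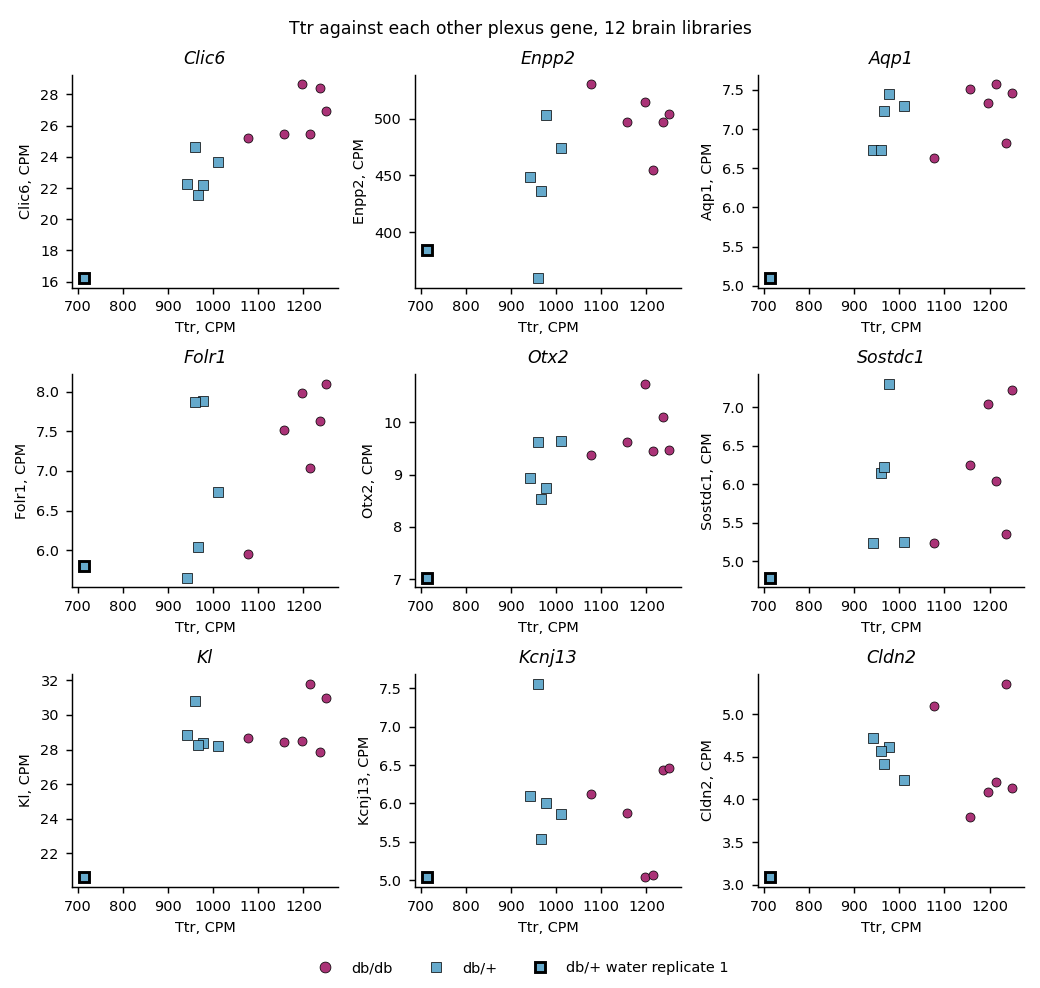
Each of the other 9 genes against Ttr, both in CPM, in the 12 brain libraries; circles are db/db, squares are db/+, the heavy outline marks db/+ water replicate 1, and the axes do not start at 0. Clic6 climbs with Ttr over both genotypes (rho 0.86), whereas Kl, Kcnj13 and Cldn2 show no such slope once the outlined library is set aside (rho 0.08, -0.05 and -0.33).

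Ttr was also set against the geometric mean of the other 9 genes in the same library. In this ratio an even change of all plexus RNA cancels only as far as reads of the 9 genes come from the plexus alone. Enpp2 is also made by oligodendrocytes, and the part of other cells and overlapping genes in the 9 was not tested. A difference in the ratio therefore does not tell plexus amount from Ttr RNA per plexus cell. In db/db the ratio was 75.1 and 79.0 with water, 79.3 and 81.7 with sucrose, and 80.8 and 84.4 with brazzein. In db/+ it was 65.1 and 65.6 with water, 71.7 and 68.9 with sucrose, and 65.3 and 70.6 with brazzein. All 6 db/db values lay above all 6 db/+ values, and db/+ water replicate 1 did not stand apart from the other db/+ libraries here. Ttr by itself already separated the genotypes, and results of this comparison were known when the genes were chosen. The separation of the ratio is thus a description and is not read as support. On the log2 scale (0.1 CPM added) the ratio averaged 6.32 ± 0.06 in db/db and 6.08 ± 0.06 in db/+ (SD, n = 6 each), a difference of 0.24, and of 0.23 without db/+ water replicate 1. The geometric mean of the 9 genes itself was 14.9 ± 0.471 CPM in db/db and 13.7 ± 1.42 CPM in db/+, ranges that overlap (14.3 to 15.5 CPM and 10.96 to 14.9 CPM). The 9 genes were weighted equally, so low genes such as Cldn2 count as much as Enpp2.

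**Figure D4:**
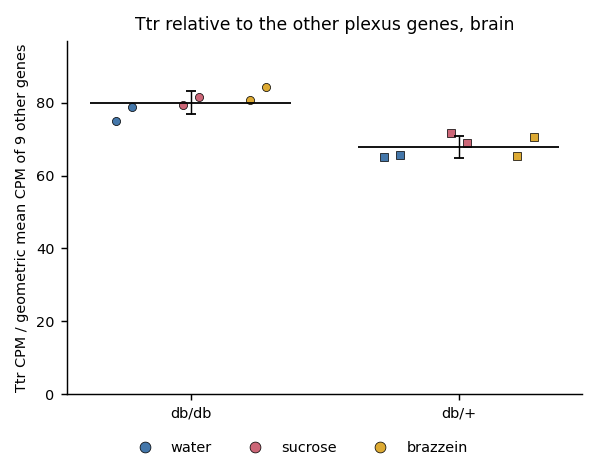
Ttr divided by the geometric mean of the other 9 plexus genes in each brain library, on an axis that starts at 0, with db/db left of db/+ and drinks by colour; lines and bars are mean and SD over 6 libraries. The db/db ratios lie between 75.1 and 84.4 and the db/+ ratios between 65.1 and 71.7.

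A wider list of 38 plexus genes, drawn up from textbook markers and with earlier results of these libraries known, was set beside the 10, and 37 of them were tested. Their median log2 difference was 0.18, and 0.12 without db/+ water replicate 1, beside 0.00 for all genes, and 28 of the 37 were above 0. At an unadjusted p under 0.05, 11 had higher values in db/db and 2 had lower ones (8 and 2 without db/+ water replicate 1), beside 13.8% of all tested genes in either direction, and edgeR called 0 of them after adjustment. Of the 4 most abundant, Igfbp2 had a difference larger than its spread. Igfbp2, a carrier of insulin-like growth factors, averaged 55.7 ± 2.95 CPM in db/db and 48.7 ± 3.34 CPM in db/+. Ace, the angiotensin-converting enzyme (40.8 ± 3.51 CPM in db/db, 38.3 ± 4.14 CPM in db/+), Vat1l (143 ± 7.49 CPM in db/db, 146 ± 7.15 CPM in db/+) and Cab39l (45.7 ± 1.49 CPM in db/db, 46.7 ± 3.42 CPM in db/+) differed by less than their spread. Every db/db brain stood above every db/+ brain for 2 of the 37 (5.41%, beside 0.871% of all genes). These 2, named after their values were seen, were Lbp, the lipopolysaccharide-binding protein, at 10.2 ± 0.983 CPM in db/db and 7.10 ± 0.694 CPM in db/+, and Perp, a desmosomal protein, at 9.99 ± 0.675 CPM in db/db and 7.43 ± 0.595 CPM in db/+. The 2 with lower values were Prlr, the prolactin receptor, at 12.04 ± 1.11 CPM in db/db and 13.8 ± 1.48 CPM in db/+, and Pon3, a lactonase, at 2.40 ± 0.423 CPM in db/db and 3.17 ± 0.437 CPM in db/+. The median rho of the 37 with Ttr was 0.52, and 19 of them had at least 0.5.

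The general ion and solute carriers of the plexus, which many other brain cells also make, had log2 differences centred near 0. Of 15 such genes, 1 had higher and 1 lower values at an unadjusted p under 0.05 (13.8% of all genes did in either direction), edgeR called 0 after adjustment, and the median log2 difference was 0.02. The higher one was Abcc4, an organic anion exporter, with a log2 difference of 0.20 (SE 0.06), and the lower one was Car2, a carbonic anhydrase abundant in oligodendrocytes, with -0.27 (SE 0.06). Genes of thyroid hormone and retinol handling or response numbered 16 tested, thyroid hormone and retinol being the cargo of transthyretin. Of the 16, 5 had higher and 2 lower values unadjusted (13.8% of all tested genes did in either direction) and 0 were called after adjustment. The 5 were Klf9 and Crym (log2 differences 0.43 and 0.22), Thra (0.12), Crabp2 (0.40) and Stra6 (0.33), and the 2 were Dio2 (-0.23) and Slco1c1 (-0.22). Thra encodes a thyroid hormone receptor, Dio2 the enzyme that activates thyroxine, Slco1c1 a thyroxine carrier, and Stra6 the receptor for the retinol-binding protein. Rbp4, that binding protein itself and named after its value was seen, had a log2 difference of 0.14 (SE 0.10).

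Markers of neighbouring tissues were measured in the same libraries, where 13.8% of all tested genes passed the unadjusted threshold in either direction. Of 15 fibroblast genes of the meninges and the plexus core, 8 had higher and 0 lower values in db/db at an unadjusted p under 0.05, with a median log2 difference of 0.24, and their sum was 1419 to 1568 CPM in db/db and 1086 to 1390 CPM in db/+, without overlap. Most of that sum was Ptgds, the prostaglandin D synthase, which averaged 1190.4 CPM in db/db and 1006 CPM in db/+ (log2 difference 0.25, SE 0.05) and had a rho of 0.81 with Ttr. Igf2, the next most abundant of the list, averaged 72.8 CPM in db/db and 70.9 CPM in db/+ (log2 difference 0.04, SE 0.06). Of 6 erythroid genes, all 6 had higher values unadjusted, with sums of 1451 to 2603 CPM in db/db and 856 to 1909 CPM in db/+, which overlap. Of 15 ependymal genes, 4 had higher values (Ccdc153, Tmem212, Pifo and Spag16), whereas Foxj1, the most abundant, had a log2 difference of -0.04, and the sums overlapped at 58.1 to 61.1 CPM in db/db and 55.0 to 60.0 CPM in db/+. Of 10 endothelial genes, 2 had higher values (Slc2a1 and Abcb1a) and 1 a lower one (Tek). Of 10 oligodendrocyte genes, 3 had lower values (Mbp, Mag and Ermn), with a median log2 difference of -0.10. EdgeR called 0 in each of these lists after adjustment, and the part of these cells in the plexus values was not tested. Like the lists of carriers, hormone handling and regional markers, these were drawn up with earlier results of these libraries known. Nothing is therefore read from their counts.

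Sums of regional markers were compared in the same way. Hypothalamic markers summed to 88.4 to 120 CPM in db/db and 63.5 to 87.1 CPM in db/+, without overlap by a small margin. Most of that difference was Avp, at 36.8 ± 11.9 CPM in db/db and 15.4 ± 4.54 CPM in db/+ (SD). Of the 9 genes, 6 had a positive log2 difference, and Avp and Oxt had higher and Sim1 lower values unadjusted. Thalamic markers summed to 386 to 422.8 CPM in db/db and 423.3 to 437 CPM in db/+, also without overlap, by a margin far smaller than the spread within a genotype. Sums of cortex, hippocampus and striatum markers overlapped between genotypes, and cerebellar sums were 1202 to 1328 CPM in db/db and 562 to 1362 CPM in db/+. Alb, the defining hepatocyte transcript, was listed at 0 in all 6 db/+ brains and at 0 to 4.82 CPM in the db/db brains, against 42529 to 76804 CPM in the livers. Of 7 hepatocyte genes tested, 1 had higher (Alb) and 1 lower values (Cps1) unadjusted, beside 13.8% of all tested genes in either direction. EdgeR called 0 of them after adjustment. Their sums, mostly Trf, overlapped at 307 to 384 CPM in db/db and 343 to 427 CPM in db/+. The part of liver RNA in brain Ttr was not tested.

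The genes whose brain pattern was most like that of Ttr outside the 10 were taken by rho over the 12 libraries. Only genes with a mean of at least 1 CPM were ranked. Symbols that start with Gm and digits or end in Rik were left out. Atoh8, a transcription factor, came first with rho 0.97 and held 2.60 to 3.08 CPM in db/db and 1.44 to 2.52 CPM in db/+. Tmem120b (0.92), Arl4a (0.91), Elp2 (0.91), Oard1 (0.90), Lgals3 (0.90), Bvht (0.90), Coro1c (0.90), Nsmce4a (0.90) and Icosl (0.90) followed. None of these 10 is in the wider plexus list. Of the 10, 7 had every db/db brain above every db/+ brain, as Ttr did, which a ranking by likeness to Ttr favours. The least alike were Fam114a1 (-0.94), Rab3c (-0.92), which encodes a vesicle GTPase, and Gatm (-0.92), which encodes the first enzyme of creatine synthesis. Rab3c held 411 to 467 CPM in db/db and 468 to 515 CPM in db/+.

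In liver, Ttr had several times the CPM of brain, each tissue being scaled on its own, and its genotypes overlapped. The db/db livers had 8677 and 8799 CPM with water, 6426 and 6757 CPM with sucrose, and 11161 and 10751 CPM with brazzein. The db/+ livers had 6718 and 6399 CPM with water, 7246 and 8436 CPM with sucrose, and 8051 and 5364 CPM with brazzein. The db/db livers fell into 3 tight pairs by drink, brazzein highest and sucrose lowest, and on sucrose both db/db livers lay below both db/+ livers. Drink differences within a genotype were not tested in liver here. The means were 8762 ± 1959 CPM in db/db and 7036 ± 1126 CPM in db/+ (SD, n = 6 each). The log2 difference of 0.29 (SE 0.11) did not pass by edgeR (adjusted p = 0.110), where 15.2% of the tested liver genes did. It passed when db/+ brazzein replicate 1 was left out (log2 difference 0.41, edgeR adjusted p = 0.0114), and the range over all leave-one-out fits was 0.22 to 0.41.

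**Figure D5:**
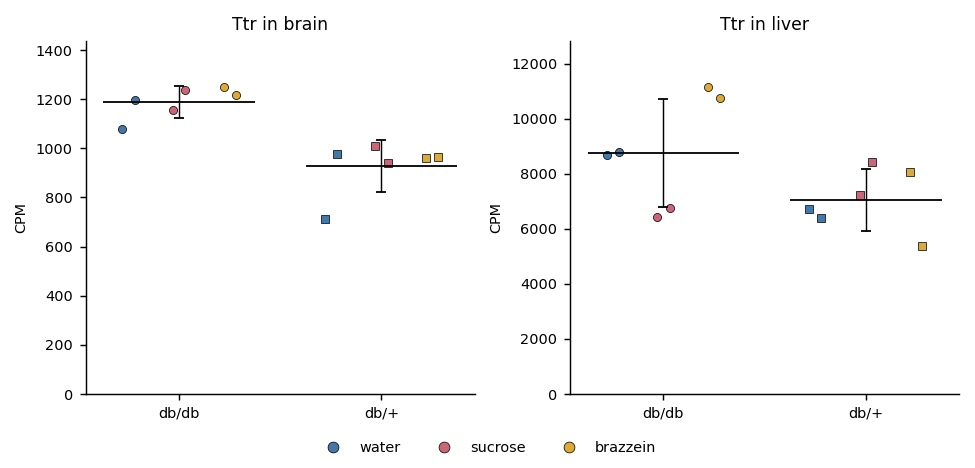
Ttr in brain (left) and liver (right), in CPM on separate axes that start at 0, with db/db left of db/+ and drinks by colour; lines and bars are mean and SD over 6 libraries. In brain the genotypes do not overlap, and in liver they do, with the db/db pairs ordered brazzein, water, sucrose from high to low.

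Of the other 9 genes, 3 passed the filter on low counts in liver. Aqp1 had 26.9, 41.9 and 62.0 CPM (lowest, median and highest) in db/db livers and 13.9, 27.7 and 38.9 CPM in db/+ livers, and was higher in db/db (log2 difference 0.71, SE 0.16, edgeR adjusted p = 0.0211). That call was lost without db/+ water replicate 1 (edgeR adjusted p = 0.0538), db/db water replicate 1 (adjusted p = 0.0564) or db/db sucrose replicate 2 (adjusted p = 0.0662). Cldn2 had 17.7 to 56.9 CPM in db/db livers and 24.6 to 41.9 CPM in db/+ livers, ranges that overlap. Enpp2 had 0.224, 1.09 and 16.2 CPM in db/db livers and 2.97, 7.21 and 10.98 CPM in db/+ livers, and the highest db/db value was that of brazzein replicate 2 alone. Its log2 difference of -1.25 (SE 0.89) did not pass by edgeR (adjusted p = 0.377), and was -2.97 (SE 0.70, edgeR adjusted p = 0.0417) without that library. Kl, Folr1, Clic6 and Kcnj13 stayed at or under 0.215 CPM in every liver, and Otx2 and Sostdc1 were listed at 0 in all 12.

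Promoter windows of members with RefSeq entries were read because OTX2 is a factor of this epithelium and is itself among the 10 genes. The RefSeq table (build GRCm38.p6, a different build from the GRCm39 named in the submitters' processing notes) held 8 windows of 300 bases, from 250 before to 50 after a start, for 5 of the 10 genes (Aqp1, Cldn2, Kcnj13, Kl and Otx2). The core TAATCC of OTX-type homeobox factors was searched on both strands. It was found in 1 of the 8 windows, one of the 4 of Otx2, 211 bases before the start and on the opposite strand, and in 7.06% of all 32851 windows of the table. The windows of Otx2 (chr14:48665060-48665359, minus strand), Aqp1 (chr6:55336049-55336348, plus strand) and Kcnj13 (chr1:87394680-87394979, minus strand) are shown to set a window with the core beside those of a channel gene alike to Ttr (rho 0.64) and one unlike it (rho 0.14). Capitals mark the core as it reads on the gene's strand, and the windows without capitals do not hold it. Both channel windows lack the core, so they do not tell a gene alike to Ttr from one unlike it. Ttr itself had no window. Some of the Otx2 windows overlap each other, so the 8 windows are not separate counts.
Otx2: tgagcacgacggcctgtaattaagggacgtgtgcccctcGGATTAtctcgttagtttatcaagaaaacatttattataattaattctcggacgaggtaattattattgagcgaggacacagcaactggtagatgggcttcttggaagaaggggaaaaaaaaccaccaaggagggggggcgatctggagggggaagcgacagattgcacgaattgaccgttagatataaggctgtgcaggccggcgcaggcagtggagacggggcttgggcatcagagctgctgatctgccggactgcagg
Aqp1: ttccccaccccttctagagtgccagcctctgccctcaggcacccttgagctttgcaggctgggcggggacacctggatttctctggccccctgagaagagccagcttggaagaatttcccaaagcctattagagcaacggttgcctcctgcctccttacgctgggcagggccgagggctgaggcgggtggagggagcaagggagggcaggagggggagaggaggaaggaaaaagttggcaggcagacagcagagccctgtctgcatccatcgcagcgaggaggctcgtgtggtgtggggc
Kcnj13: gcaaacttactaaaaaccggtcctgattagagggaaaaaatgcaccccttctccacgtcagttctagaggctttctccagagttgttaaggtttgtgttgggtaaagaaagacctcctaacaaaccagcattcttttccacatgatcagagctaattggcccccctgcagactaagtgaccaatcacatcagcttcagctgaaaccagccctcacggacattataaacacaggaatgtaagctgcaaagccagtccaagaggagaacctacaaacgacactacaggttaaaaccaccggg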

How the data were processed

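TRIzol RNA was selected for poly(A), and the kit was NEBNext Ultra II RNA, per the labels' protocols. The authors deposited 1 file of estimated counts per sample, whole numbers per gene name that are not scaled for library size. Their deposited series table gave 12 brain columns of FPKM, used for levels between genes, and 36 of its columns were not used. The submitters' processing notes name bcl2fastq and build GRCm39. The aligner, the counter and its gene models: not given in the sources used here. Counts were tested in R 4.3.3 with edgeR 4.0.16 (TMM, filterByExpr, quasi-likelihood, 6 groups per tissue in 1 fit, Benjamini-Hochberg over 23653 brain or 19352 liver genes, threshold 0.05). Other settings were DESeq2 1.42.0, RLE size factors, no low-count filter, a replicate block, leaving out each library and, added after seeing the data, leaving out 3 brain libraries. The fit was checked on simulated counts. Members and lists were chosen with earlier results of these data known. The rule for named genes took all 10 members, Lepr, and the 10 most and 3 least alike genes. Genes ranked by likeness needed a mean of at least 1 CPM. Symbols starting with Gm and digits or ending in Rik were left out of that ranking. The rule also took up to 4 abundant genes per list with those behind counts of 5 or fewer. Replicate numbers did not pair samples: deviations of same-numbered brain libraries correlated at -0.05 to 0.05. The headers of the 2 db/+ brazzein liver files carry each other's replicate name, within 1 group.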

Additional observations from a re-analysis of the deposited data

Results flagged for a closer look

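A single library, db/+ water replicate 1, lay outside the range of the other 5 db/+ brains by more than Dixon's criterion for 5 of the 10 genes. It held 713.1 CPM of Ttr, where the others held 941 to 1009.6. It held 20.62 CPM of Kl (others 28.2 to 30.8), 16.24 CPM of Clic6 (others 21.5 to 24.6), 5.099 CPM of Aqp1 (others 6.73 to 7.45) and 3.086 CPM of Cldn2 (others 4.23 to 4.72). In all, 22 groups of 6 values were examined, and chance flags about 1 in 20. All 5 flags fall on this 1 library, so they do not count as separate departures from that rate. The same library was low in cerebellar markers, and the part of that in these values was not tested.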

How the results depend on the processing

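By edgeR, 0 of the 10 genes passed in all 8 brain comparisons, and DESeq2 called 1 (Ttr) for genotype over drinks and 0 in the other 7. Leaving out 1 library at a time gave 0 to 1 called genes for genotype over drinks and 0 to 1 on water, in both cases Ttr without db/+ water replicate 2, and 0 in the other 6. With replicate numbers as a block, 0 of the 10 were called, and the numbers pair no samples. All genes called for genotype over drinks numbered 2, against 699 by DESeq2, 1 with no filter, 0 with the block and 1 to 42 with 1 library left out. The log2 difference of Ttr ran from 0.29 to 0.44 with 1 library left out, and the genotype difference of the log2 ratio of Ttr to the other 9 genes from 0.22 to 0.26. The median rho of 0.59 was 0.68 as Pearson's r with either pseudocount (0.38 without db/+ water replicate 1), 0.46 from FPKM, 0.81 for deviations from group means (0.38 without the db/+ water pair), 0.26 within db/db, 0.35 without the 2 farthest libraries, and 0.46 to 0.62 with 1 library left out. Liver Ttr ran from 0.22 to 0.41 with 1 library left out (edgeR adjusted p from 0.0114 to 0.192), and from 0.29 to 0.31 under 4 other settings (adjusted p from 0.0865 to 0.140). With 2 libraries a group, a lone library left in a group is assumed to vary like the other groups.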
